A study of Drosophila melanogaster with 10 samples.

Results

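Larvae mutant for atf3 that carry 1 copy of a dfoxo allele were compared directly with larvae mutant for atf3 that carry 1 copy of a rel allele, across all genes and without use of the y w control. The libraries were taken by their labels, 2 of y w, atf3[76];;dfoxo[25J13]/+ (called dfoxo/+ here) and 2 of y w, atf3[76];;rel[E20]/+ (called rel/+ here), which makes 4 of the 10 libraries of the series. All 4 share the markers y and w and the allele atf3[76], so every difference below is between larvae of that same mutant background. RNA was prepared from whole male larvae of the third instar raised at 25 °C and sequenced as total RNA libraries. The rest of the series, 2 libraries each of y w, of atf3[76] alone and of atf3[76];;atf3[A]/+, is given only as values beside a result. The labels give no molecular lesion for any allele, do not say what atf3[A] is, and do not tie the 2 libraries of a genotype to separate cultures. A p-value therefore measures the spread between these samples, which may be technical. In whole larvae, fewer cells of a type and less RNA per cell cannot be told apart.

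Atf3 is a bZIP transcription factor induced by stress. FOXO is the forkhead transcription factor that insulin signalling holds out of the nucleus, and it is known for activating genes of nutrient restraint such as Thor and InR. Relish is the NF-κB factor of the Imd pathway, in which peptidoglycan of bacteria is sensed by PGRP receptors and Relish is cleaved to activate genes for antimicrobial peptides in fat body and gut. The comparison asks which genes separate the 2 added alleles within the same atf3 mutant.

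The deposited values are FPKM, fragments scaled to gene length and to library size, and the lowest value listed for any gene is 1. A gene listed at 1 is written as such and gets no fold. Of 13995 genes, 2594 were listed at 1 in all 4 libraries and 11401 were tested, of which 10376 lay above 1 in all 4. Genes at 1 numbered between 2945 and 3358 per library. The libraries did not group by genotype: on the log2(FPKM + 1) scale Pearson's r across genes, which are not independent replicates, was 0.945 between the dfoxo/+ libraries, 0.940 between the rel/+ libraries and between 0.941 and 0.953 across genotypes. Total fragment numbers are not given. In small nucleolar RNAs of 141 bp, most values came in whole multiples of a step that was taken to stand for 1 fragment, 13 of 14 and 11 of 12 in the dfoxo/+ libraries and 13 of 14 and 14 of 15 in the rel/+ libraries. This step was 5.16 and 10.5 FPKM in dfoxo/+ replicates 1 and 2 and 5.09 and 5.07 FPKM in the rel/+ replicates.

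The targeted genes came first. Rel was listed at 21.1 and 20.6 FPKM in dfoxo/+ and at 16.7 and 13.3 FPKM in rel/+. Both rel/+ libraries lay below both dfoxo/+ libraries, while both libraries of atf3[76] alone, at 21.4 and 21.0 FPKM, stood beside dfoxo/+. The log2 difference, dfoxo/+ minus rel/+, was 0.46 ± 0.17 (SE, adjusted p = 0.9998). Rel overlaps another gene, and strand is not stated. foxo was listed at 8.69 and 6.86 FPKM in dfoxo/+ and at 8.55 and 8.09 FPKM in rel/+, so the groups overlapped (log2 difference -0.09 ± 0.17, SE). The gene-level value of foxo therefore does not set the dfoxo/+ libraries apart from rel/+. Atf3, listed under its older symbol A3-3, stood at 13.1 and 13.5 FPKM in dfoxo/+ and at 15.1 and 9.24 FPKM in rel/+, which also overlapped (0.16 ± 0.25). The marker genes y and w were listed at 1 in all 4 libraries.

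Across all genes, few separated the genotypes. At an adjusted p under 0.05, 12 of 11401 genes were called (0.105%), 4 higher in dfoxo/+ (0.0351%) and 8 lower (0.0702%). Without adjustment, 235 genes had p under 0.05 (2.06%; 0.772% higher and 1.29% lower in dfoxo/+), against 570 that would make 5% of the genes tested. Of these 235, 37.4% were higher in dfoxo/+, and after each library was centred on its median this share was 50.2% of 239 genes. A description by level was used beside the test: a gene counts as separated when both libraries of 1 genotype lie above both of the other and the group means differ at least 2-fold. This held for 148 genes (1.3%), 49 higher in dfoxo/+ (0.43%) and 99 lower (0.868%). Of the 148, 72 were listed at 1 in at least 1 library, 76 lay above 1 in all 4, and 29 were small nucleolar RNAs. Exact permutation of 2 against 2 libraries cannot give a two-sided p below 0.333, so single genes were judged by the fit across all genes alone.

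**Figure D1:**
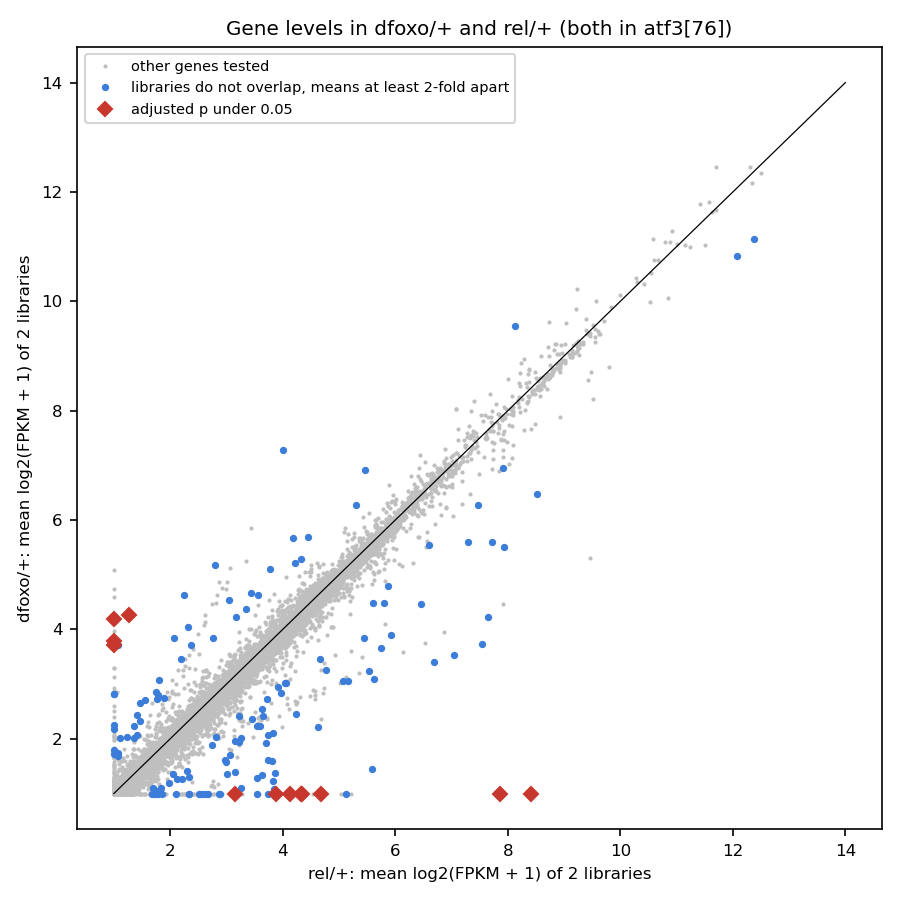
Mean log2(FPKM + 1) of the 2 dfoxo/+ libraries (vertical axis) against that of the 2 rel/+ libraries (horizontal axis) for the 11401 genes tested, with the diagonal of equal level. The 12 called genes (diamonds) lie on the edges of the plot, where 1 genotype is at or near the lowest value, while the 148 separated genes (blue dots, called ones drawn as diamonds) spread along both sides of the diagonal.

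Of the 12 called genes, 11 were listed at 1 in both libraries of 1 genotype and entered the test only through the other genotype. A pair of values at 1 has no spread, which lowers the spread that the fit uses for these 11 genes. Their adjusted p-values are given as the rule of the call and were not taken as support for a difference. Of the 12 called genes, 4 were small nucleolar RNAs. Of the other 8, 3 were called higher in dfoxo/+. Fas1 (FBgn0262742, chromosome arm 3R, bases 12450947 to 12465493, build BDGP R5), a cell adhesion molecule of the fasciclin family, stood at 19.3 and 15.6 FPKM in dfoxo/+ and was listed at 1 in both rel/+ libraries (adjusted p = 0.0241). It was also listed at 1 in both atf3[76] libraries and in 1 of the y w libraries. In atf3[A]/+ Fas1 stood at 16.4 and 13.2 FPKM, near its level in dfoxo/+. CG8136 (FBgn0037616, 3R, bases 4547092 to 4548773) stood at 14.2 and 11.6 FPKM in dfoxo/+ and was listed at 1 in both rel/+ libraries (adjusted p = 0.0241). The remaining 6 libraries of the series list CG8136 at 1 as well, so dfoxo/+ was the only genotype with a value for it. CG42518 (FBgn0260392, arm 2R) was the only called gene above 1 in all 4 libraries, at 19.0 and 17.4 FPKM in dfoxo/+ against 1.06 and 1.85 FPKM in rel/+. Its log2 difference was 2.99 ± 0.21 (SE, adjusted p = 0.0463). CG42518 overlaps another gene, and the atf3[76] libraries disagreed on it, at 13.5 and 1.24 FPKM.

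The other 5 were called lower in dfoxo/+, each of them listed at 1 in both dfoxo/+ libraries. CG8223 (FBgn0037624, 3R, bases 4573527 to 4579827), which carries the RefSeq symbol Nasp, a histone chaperone, stood at 20.9 and 29.2 FPKM in rel/+ (adjusted p = 0.0241). Both atf3[76] libraries and both atf3[A]/+ libraries list CG8223 at 1. Sdc (FBgn0010415, 2R), the heparan sulfate proteoglycan syndecan, stood at 21.0 and 17.7 FPKM in rel/+ (adjusted p = 0.0241). For Sdc, both y w and both atf3[76] libraries were listed at 1 and both atf3[A]/+ libraries at 20.8 and 21.0 FPKM. CG16986 (FBgn0035356, 3L, bases 2600366 to 2601536) stood at 19.8 and 18.2 FPKM in rel/+ (adjusted p = 0.0241). Its neighbour Pxn (FBgn0011828, 3L, bases 2601449 to 2630072), the extracellular matrix peroxidase peroxidasin made by hemocytes, stood at 14.5 and 18.9 FPKM in rel/+ (adjusted p = 0.0241). The Pxn and CG16986 intervals overlap, and both genes are listed at 1 in the same 5 libraries, both y w, atf3[76] replicate 1 and both dfoxo/+. CG6231 (FBgn0038720, 3R, bases 15441745 to 15458440) stood at 14.8 and 12.8 FPKM in rel/+ (adjusted p = 0.0241) and was listed at 1 in atf3[76] replicate 1 and at 12.7 FPKM in replicate 2. In y w CG6231 stood at 8.69 and 7.52 FPKM and in atf3[A]/+ at 15.5 and 10.4 FPKM.

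Several of these genes were listed at 1 in 1 library and above 10 FPKM in the other library of the same genotype. These were Fas1, CG8223 and CG42518 in y w and CG16986, Pxn and CG6231 in atf3[76]. All 7 called genes other than small nucleolar RNAs at 1 in both libraries of dfoxo/+ or rel/+ were also at 1 in at least 1 of the other 6 libraries. What the authors placed at 1 is not stated, so a value of 1 beside a higher level does not measure a fold. In the authors' deposited table, 4 of the 12 called genes carry a quality flag in the comparison of dfoxo/+ or rel/+ with y w. They are Fas1, CG42518, CG8223 and snoRNA:Psi28S-3305b. Without any 1 of the 4 libraries, no gene was called by limma, and between 205 and 430 genes had an unadjusted p under 0.05.

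**Figure D2:**
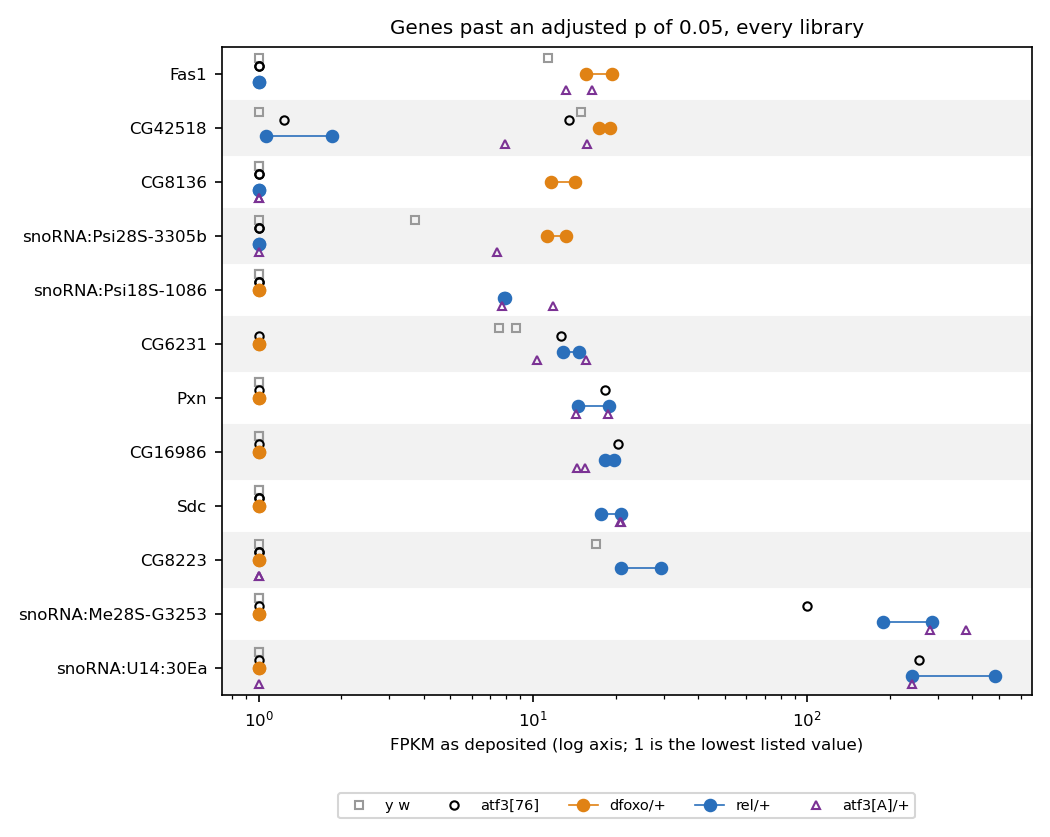
FPKM (log axis) of the 12 called genes in every library, with dfoxo/+ and rel/+ as filled circles joined by a line and the other genotypes as open symbols. For 11 genes both libraries of 1 genotype sit at 1; open symbols at 1 show other libraries in which the gene was listed at the lowest value.

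Small nucleolar RNAs guide the methylation or pseudouridylation of ribosomal RNA, and they supplied 4 of the 12 calls. snoRNA:Psi28S-3305b was called higher in dfoxo/+, at 11.3 and 13.2 FPKM, or 3 and 2 fragments, against 1 in both rel/+ libraries (adjusted p = 0.0241). snoRNA:U14:30Ea was called lower, at 1 in both dfoxo/+ libraries and 484 and 241 FPKM in rel/+ (adjusted p = 0.0241). By the step of 1 fragment, read at this gene's length from 5 values, those 2 rel/+ values stand for 2 and 1 fragments. snoRNA:Me28S-G3253 stood at 284 and 189 FPKM in rel/+ and at 1 in dfoxo/+ (adjusted p = 0.0212). These were the only 2 values at its length, so its number of fragments could not be checked. snoRNA:Psi18S-1086 stood at 7.88 and 7.85 FPKM in rel/+, or 2 fragments in each, and at 1 in dfoxo/+ (adjusted p = 0.0337). All 4 overlap another gene. Others of the class were listed at 1 in both libraries of 1 genotype and above it in the other without being called. snoRNA:Psi18S-1295 was listed at 1 in both dfoxo/+ libraries and at 25.5 and 15.2 FPKM in rel/+ (adjusted p = 0.06785), and snoRNA:Psi28S-1837b at 1 against 50.8 and 22.5 FPKM (adjusted p = 0.127). snoRNA:Psi28S-1232, above 1 in all 4, stood at 20.0 and 30.1 FPKM in dfoxo/+ and at 9.85 and 9.81 FPKM in rel/+. At its length of 142 bp the step of 1 fragment was 4.99 and 10.02 FPKM in dfoxo/+ replicates 1 and 2. In the rel/+ replicates this step was 4.92 and 4.91 FPKM. All 4 values of snoRNA:Psi28S-1232 thus stand for few fragments, and its difference was not taken as support for a change. Over the whole class, 147 of 282 small nucleolar RNAs were tested, 11 were separated with dfoxo/+ higher, against 0.43% of all genes tested, and 18 with dfoxo/+ lower, against 0.868%. Their median log2 difference was -0.22. One fragment was worth about 2 times as much in dfoxo/+ replicate 2 as in the other libraries at these lengths, a ratio between 1.94 and 2.26, and its part in these counts was not tested.

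No immune peptide was called between dfoxo/+ and rel/+. Of 8 immune-induced IM peptides (Bomanins and related short secreted peptides of the fat body, targets of Toll), all 8 had a log2 difference below 0, against 69.5% of all genes tested, with a median of -2.0025 against -0.0601. Both dfoxo/+ libraries lay below both rel/+ libraries for 6 of the 8, against 16.2% of all genes. Of the 8, 5 were separated with dfoxo/+ lower, against 0.868%. IM23, IM1, IM2 and IM3 lie together on arm 2R, from base 14270208 to 14275995. IM4 and IM14 also lie near each other on 2R, from bases 16756341 and 16757929. The 8 peptides are therefore not 8 independent observations. IM10 was listed at 14.8 and 3.60 FPKM in dfoxo/+ and at 66.9 and 34.7 FPKM in rel/+ (log2 difference -2.53 ± 0.67, SE, adjusted p = 0.9998). IM3 stood at 68.2 and 29.0 FPKM in dfoxo/+ and at 503 and 116 FPKM in rel/+. IM14 stood at 69.9 and 110 FPKM against 872 and 152 FPKM, and IM2 at 25.3 and 17.6 FPKM against 227 and 33.2 FPKM. IM23 stood at 9.23 and 5.83 FPKM against 84.7 and 12.2 FPKM, and IM18 at 4.91 and 4.85 FPKM against 11.1 and 5.84 FPKM. In each of these, rel/+ replicate 1 was the highest library of the 4. IM1 and IM4 overlapped: rel/+ replicate 1 was at 208 and 103 FPKM, and rel/+ replicate 2, at 14.3 and 5.87 FPKM, lay below both dfoxo/+ libraries.

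Summed over the 8 IM peptides, the level was 216 and 200 FPKM in dfoxo/+, 2076 FPKM in rel/+ replicate 1 and 374 FPKM in rel/+ replicate 2. The atf3[76] libraries stood at 282 and 670 FPKM, the higher of them inside the rel/+ range. Without rel/+ replicate 1, 6 of the 8 still had a log2 difference below 0 and the median was -0.64. The size of the group's difference therefore rested on that library to a large part, while its side for IM10, IM3, IM14, IM23, IM2 and IM18 did not.

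The antimicrobial peptides, which are secreted by fat body and epithelia and act directly on microbes, were not called either. Of 16 tested, 15 had a log2 difference below 0, against 69.5% of all genes tested, with a median of -1.11. Of the 16, 3 were separated with dfoxo/+ lower, against 0.868% of all genes, and none was called. Several lie close together, as CecA1, CecA2, CecB and CecC on 3R and Dro, AttA and AttB on 2R. They are not independent observations. Drs, the antifungal drosomycin and a Toll target, was listed at 114 and 19.4 FPKM in dfoxo/+ and at 260 and 168 FPKM in rel/+. Its paralog dro2 was listed at 3.62 and 1 FPKM in dfoxo/+ and at 18.1 and 8.24 FPKM in rel/+, with both atf3[76] libraries higher still at 35.0 and 52.0 FPKM. CecC, a cecropin, stood at 4.40 and 2.40 FPKM against 29.6 and 5.61 FPKM. The Imd targets named next overlapped. AttA, an attacin, stood at 8.79 and 1.69 FPKM in dfoxo/+ and at 73.3 and 7.75 FPKM in rel/+, and AttB at 14.7 and 4.85 FPKM against 108 and 5.05 FPKM. Dpt, diptericin, stood at 66.1 and 6.23 FPKM against 74.6 and 7.01 FPKM, and DptB at 46.7 and 12.5 FPKM against 84.9 and 12.1 FPKM. In each genotype replicate 1 was far above replicate 2 for these genes. The only peptide above 0 was dro5, at 22.3 and 1.90 FPKM against 1.32 and 11.4 FPKM. Without rel/+ replicate 1, 7 of 16 antimicrobial peptides were below 0 and the median changed sign to 0.23.

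The 3 PGRP-SC genes were separated and none was called. The catalytic PGRPs of the SC class cleave peptidoglycan and damp the Imd response in the gut. PGRP-SC1a was listed at 3.47 and 28.8 FPKM in dfoxo/+ and at 146 and 118 FPKM in rel/+, a ratio of means of 8.20 (log2 difference -3.52 ± 0.91, SE, adjusted p = 0.9998). The near-identical PGRP-SC1b was listed at 3.63 and 23.2 FPKM against 114 and 90.5 FPKM, a ratio of 7.65. Fragments of this pair cannot be told apart with certainty, so they count as 1 observation. In atf3[76] alone PGRP-SC1a stood at 9.78 and 3.50 FPKM, within the range of dfoxo/+, and in y w at 62.9 and 98.3 FPKM, below rel/+. PGRP-SC2 was listed at 40.1 and 55.9 FPKM in dfoxo/+ and at 111 and 218 FPKM in rel/+, a ratio of 3.43 (log2 difference -1.70 ± 0.38, SE, adjusted p = 0.9998). For PGRP-SC2 the atf3[76] libraries, at 285 and 133 FPKM, stood with rel/+ and not with dfoxo/+. Without 1 library, the log2 difference ranged from -4.89 to -2.15 for PGRP-SC1a and from -4.47 to -2.09 for PGRP-SC1b, in both cases nearest 0 without dfoxo/+ replicate 1 and farthest without dfoxo/+ replicate 2. For PGRP-SC2 it ranged from -2.18 without rel/+ replicate 1 to -1.21 without rel/+ replicate 2.

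**Figure D3:**
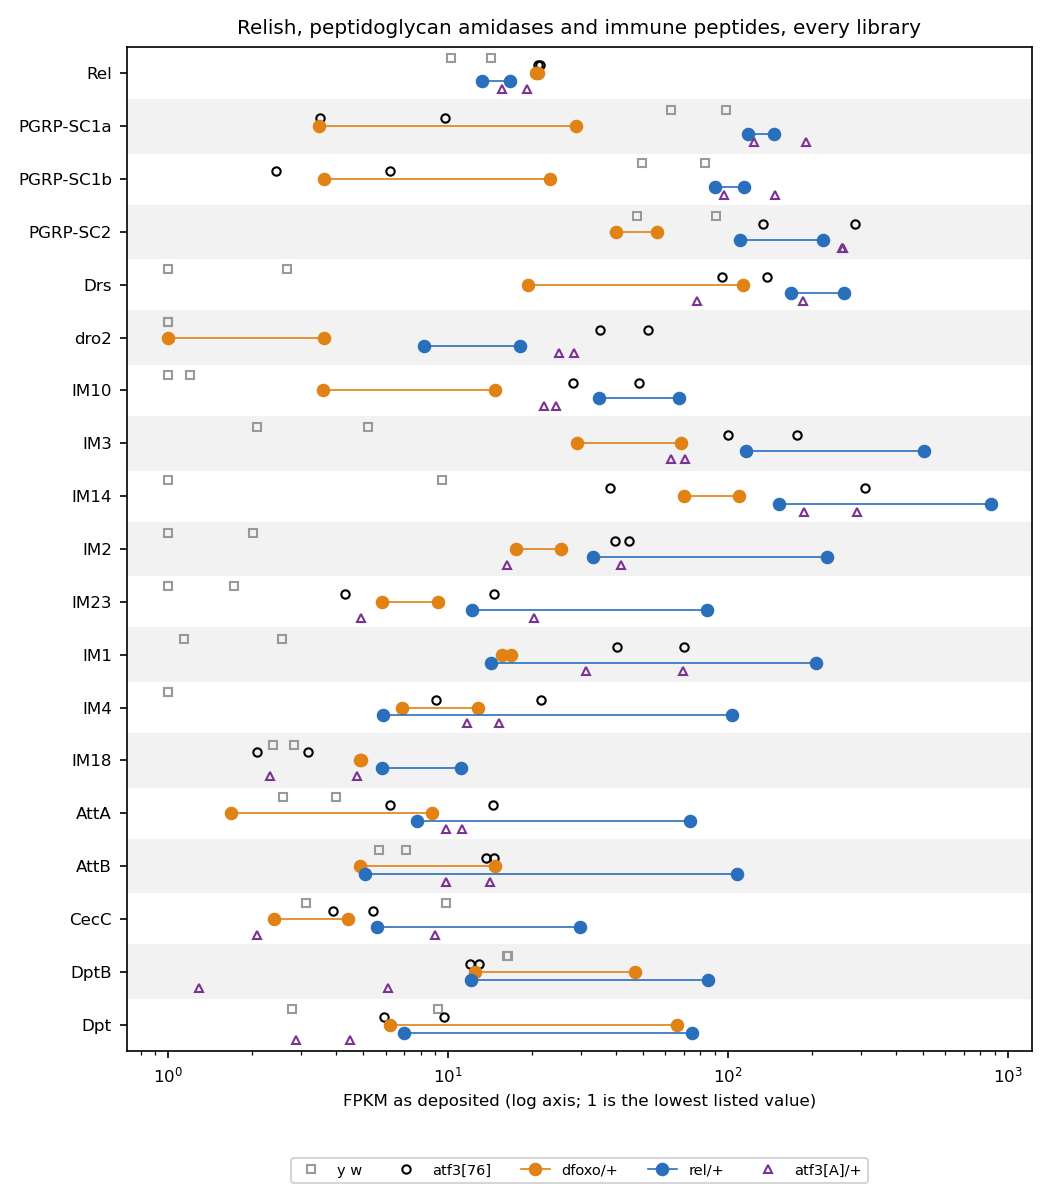
FPKM (log axis) of Rel, the 3 PGRP-SC amidases, 2 drosomycin family members, the 8 IM peptides and 5 other antimicrobial peptides in every library, with dfoxo/+ and rel/+ as filled circles joined by a line. Rel, the PGRP-SC genes, Drs, dro2, CecC and 6 IM peptides keep the genotypes apart. For IM1, IM4, AttA, AttB, DptB and Dpt the rel/+ range overlaps that of dfoxo/+.

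No upstream component was called. Among 23 tested genes of the Imd pathway, from receptors to regulators, the 3 PGRP-SC genes were the only separated ones. All 3 were lower in dfoxo/+, against 0.868% of all genes tested. Of the 23, 13 had a log2 difference below 0, against 69.5% of all genes, and the median was -0.0096. Among 18 genes of the Toll pathway none was separated and the median was -0.14. GNBP2, a member of the family of glucan-binding recognition proteins, was the only one with an unadjusted p under 0.05, at 4.04 and 4.11 FPKM in dfoxo/+ against 6.18 and 5.44 FPKM in rel/+. Of 5 thioester proteins, complement-like opsonins, none was separated. Of 10 Turandot and JAK/STAT genes of the stress response none had an unadjusted p under 0.05.

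No lysozyme was called between the genotypes. Summed over 7 genes they stood at 12223 and 16049 FPKM in dfoxo/+ and at 14276 and 16064 FPKM in rel/+, against 1811 and 1042 FPKM in atf3[76] alone. LysD accounted for 4527 and 6054 FPKM in dfoxo/+ and for 5496 and 6158 FPKM in rel/+, and the near-identical LysB, LysC and LysE may share fragments with it. LysD was as high in y w, at 5482 and 5715 FPKM, and low in atf3[A]/+, at 172 and 128 FPKM. LysP was the only lysozyme with an unadjusted p under 0.05, at 9.95 and 9.05 FPKM in dfoxo/+ against 13.3 and 21.2 FPKM in rel/+.

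Of 25 genes of insulin signalling and known FOXO targets tested, none was called or separated, against 0.105% and 1.3% of all genes, and 1 had an unadjusted p under 0.05. That gene was tobi, an α-glucosidase of the fat body under control of insulin-producing cells, at 5.60 and 4.27 FPKM in dfoxo/+ and at 7.20 and 10.5 FPKM in rel/+. Thor, the translational repressor 4E-BP and a FOXO target, stood at 175 and 115 FPKM in dfoxo/+ and at 203 and 177 FPKM in rel/+ (log2 difference -0.42 ± 0.25). Its libraries did not overlap, but dfoxo/+ replicate 1 and rel/+ replicate 2 were next to each other and the difference was within 2 SE of 0. Ilp6, the insulin-like peptide of the fat body, stood at 15.2 and 10.3 FPKM in dfoxo/+ and at 15.7 and 17.5 FPKM in rel/+. Both dfoxo/+ libraries lay below both rel/+ libraries for 5 of the 25 and above them for none, against 16.2% and 4.7% of all genes. The median of the list was -0.094, against -0.0601 for all genes.

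No digestive enzyme was called. Of 27 midgut proteases tested, 2 were separated with dfoxo/+ lower, against 0.868% of all genes tested. Of the 27, 13 had a log2 difference below 0, against 69.5% of all genes, and the median was 0.03. The separated pair were Jon99Ciii and Jon99Cii, Jonah serine proteases that are near-identical copies on 3R and are counted as 1 observation. Jon99Ciii was listed at 1808 and 1816 FPKM in dfoxo/+ and at 4947 and 3775 FPKM in rel/+, a ratio of means of 2.41 (log2 difference -1.25 ± 0.19, SE, adjusted p = 0.508). Jon99Cii stood at 2266 and 2263 FPKM against 6107 and 4612 FPKM. Both genes were lower in both dfoxo/+ libraries than in any of the other 8. Another Jonah protease, Jon65Aiii, lay the other way, at 2098 and 2405 FPKM in dfoxo/+ and at 1573 and 1503 FPKM in rel/+.

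Of 21 genes of sugar digestion and transport, none was separated. An unadjusted p under 0.05 held for 3, all of them lower in dfoxo/+, against 1.29% of all genes tested. The copies Amy-d and Amy-p, which encode α-amylase, were among them, and tobi was the other. As copies of each other, Amy-d and Amy-p are counted as 1 observation. Both carry a quality flag in the authors' comparisons of dfoxo/+ and of rel/+ with y w. Amy-p stood at 42.3 and 28.9 FPKM in dfoxo/+ and at 78.6 and 59.3 FPKM in rel/+, and Amy-d at 41.1 and 31.0 FPKM against 75.4 and 58.0 FPKM. In atf3[76] alone Amy-p was at 110 and 146 FPKM, above both genotypes. The y w libraries disagreed on Amy-p, at 111 and 7.71 FPKM.

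Detoxification genes lay on both sides and none was called. Of 20 glutathione transferases, which conjugate glutathione to electrophiles, 1 was separated with dfoxo/+ higher and 2 with dfoxo/+ lower. The shares over all genes tested were 0.43% and 0.868%. GstD5 was listed at 3.85 and 7.77 FPKM in dfoxo/+ and at 2.26 and 1.67 FPKM in rel/+. GstD4 was listed at 5.11 and 8.79 FPKM in dfoxo/+ and at 16.5 and 12.0 FPKM in rel/+, and GstD8 at 3.22 and 2.93 FPKM against 7.91 and 4.53 FPKM. Members of the GstD cluster resemble each other in sequence, and how the authors assigned shared fragments is not stated. Of 75 cytochrome P450 genes, which encode monooxygenases, 3 had an unadjusted p under 0.05 with dfoxo/+ higher and 3 with dfoxo/+ lower. The shares over all genes tested were 0.772% and 1.29%, and the median of the list was -0.0022. Cyp28d2 was the 1 separated P450, against 1.3% of all genes tested. It stood at 5.06 and 6.31 FPKM in dfoxo/+ and at 2.57 and 2.24 FPKM in rel/+ (log2 difference 0.97 ± 0.17, SE, adjusted p = 0.737). Both genotypes lay below atf3[76] alone for Cyp28d2, which was at 11.9 and 11.8 FPKM. Cyp4e3 stood at 29.8 and 30.1 FPKM in dfoxo/+ against 19.4 and 12.7 FPKM in rel/+, and Cyp6d5 at 38.6 and 36.8 FPKM against 57.8 and 66.7 FPKM.

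Among metal-binding proteins, MtnA, a metallothionein, was listed at 634 and 969 FPKM in dfoxo/+ and at 422 and 424 FPKM in rel/+ (log2 difference 0.89 ± 0.24, SE, adjusted p = 0.9998). MtnD stood at 268 and 369 FPKM against 188 and 222 FPKM, on the same side. MtnB stood at 21.7 and 24.9 FPKM against 34.7 and 29.3 FPKM, on the opposite side. MtnC, picked out after its values were seen, stood at 7.95 and 8.38 FPKM against 11.1 and 10.3 FPKM, on the side of MtnB. None of the 12 transferrins and metallothioneins tested was separated or called.

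Outside the lists, the genes above 1 in all 4 libraries with the lowest p among those whose libraries did not overlap include the following. CG31436 on 3R was listed at 14.1 and 16.9 FPKM in dfoxo/+ and at 4.16 and 3.82 FPKM in rel/+, a ratio of means of 3.87 (log2 difference 1.72 ± 0.16, SE, adjusted p = 0.124). Its level in atf3[76], at 12.4 and 14.4 FPKM, stood beside dfoxo/+, and that in y w, at 5.38 and 4.20 FPKM, beside rel/+. CG10559 stood at 6.18 and 6.23 FPKM in dfoxo/+ and at 2.07 and 2.65 FPKM in rel/+, with atf3[76] between them at 3.48 and 3.60 FPKM. CG17352, whose RefSeq symbol is Culd, stood at 14.6 and 12.2 FPKM against 6.45 and 5.22 FPKM, with atf3[76] lower than both. On the other side, CG8799 (FBgn0010549, arm 2R), an ABC transporter gene given here by its RefSeq synonym, stood at 2.80 and 2.86 FPKM in dfoxo/+ against 8.92 and 7.72 FPKM in rel/+, a ratio of 2.94 (log2 difference -1.28 ± 0.15, SE, adjusted p = 0.242). CG42779, which overlaps another gene, stood at 80.5 and 73.1 FPKM in dfoxo/+ against 174 and 181 FPKM in rel/+ (log2 difference -1.20 ± 0.15, SE, adjusted p = 0.26).

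**Figure D4:**
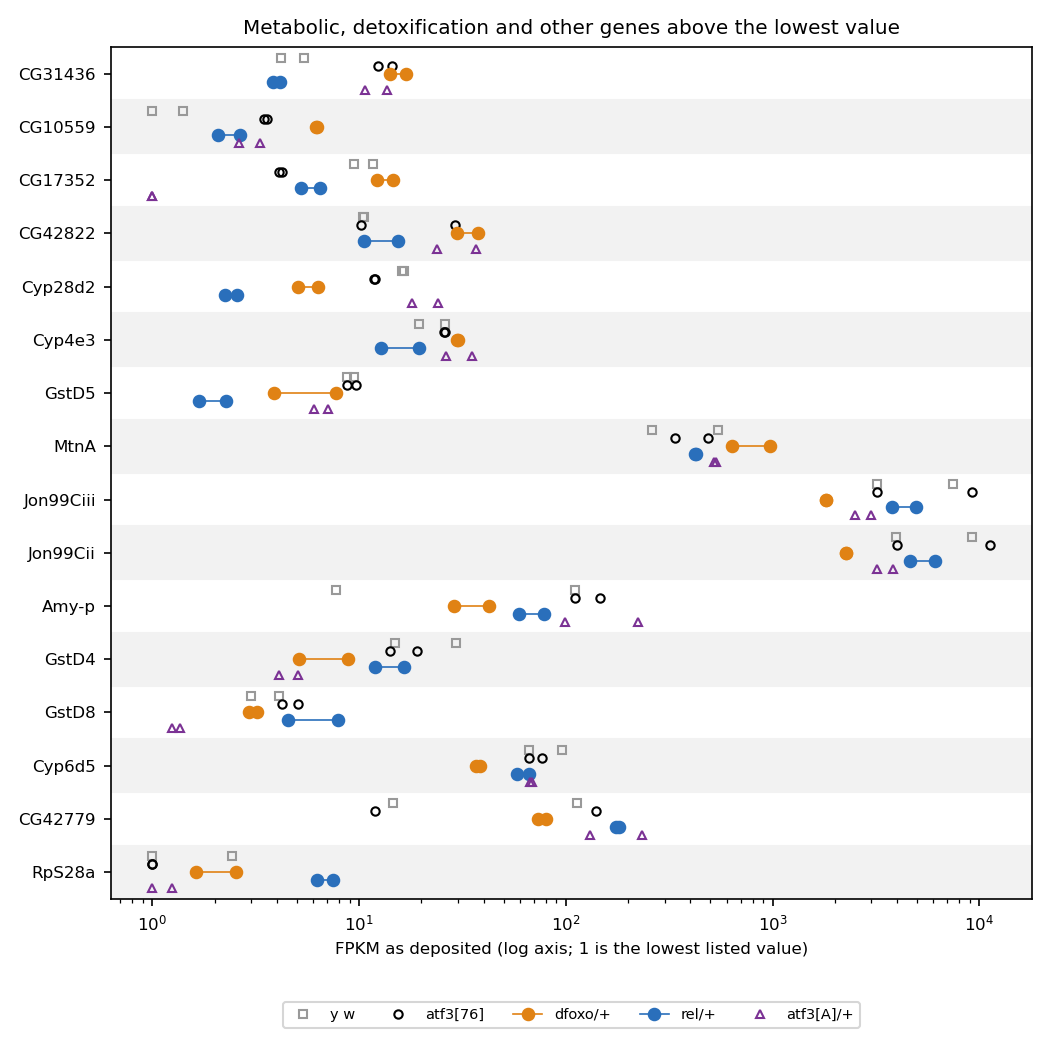
FPKM (log axis) of 16 metabolic, detoxification and other genes above 1 in all 4 libraries of dfoxo/+ and rel/+ (filled circles joined by a line), with the other genotypes as open symbols. The first 8 genes have both dfoxo/+ libraries above both rel/+ libraries and the last 8 the reverse; open black circles show atf3[76] alone, which lies beside dfoxo/+ for CG31436 and above both genotypes for Cyp28d2.

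Where the background genotype stood was counted for the 76 separated genes above 1 in all 4 libraries. Of the 26 higher in dfoxo/+, the mean of atf3[76] on the log2 scale was nearer dfoxo/+ for 15 and nearer rel/+ for 11. Of the 50 lower in dfoxo/+, it was nearer dfoxo/+ for 27 and nearer rel/+ for 23. The rule places every gene on 1 side, also where the 2 atf3[76] libraries disagree. From which allele a difference came was therefore not read from these counts.

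Large gene classes were described by their sides and medians. Of 91 cytoplasmic ribosomal protein genes, 87 had a log2 difference below 0, against 69.5% of all genes tested. For 50, both dfoxo/+ libraries lay below both rel/+ libraries, against 16.2% of all genes tested. The median of this list was -0.10, and RpS28a was its only separated member, against 1.3% of all genes tested. RpS28a, a paralog of the ribosomal protein gene for S28, stood at 2.53 and 1.63 FPKM in dfoxo/+ and at 6.23 and 7.45 FPKM in rel/+ (log2 difference -1.36 ± 0.21, SE, adjusted p = 0.532). After each library was centred on its median, 62 of the 91 lay below 0, against 44.1% of all genes, and 7 were below without overlap, against 9.12%, so the count depends on the scaling of the libraries. All genes together had a median of -0.0601, which centring moved to 0.0175. The 42 proteasome genes had a median of -0.15 and no separated member, and the median was 0.008 without dfoxo/+ replicate 2 and 0.034 without rel/+ replicate 2. Of the 84 oxidative phosphorylation genes 45 lay below 0, against 69.5% of all genes tested, with a median of -0.014. The 1 separated member, against 1.3% of all genes tested, was CG34172. It stood at 2.45 and 1.9955 FPKM in dfoxo/+ and 1.21 and 1 FPKM in rel/+. The 20 genes of lipid storage had a median of -0.021 and 1 separated member, against the same 1.3%. This was the lipase gene Lip3, at 2.50 and 1 FPKM against 3.10 and 4.92 FPKM. CG34172 and Lip3 were both picked out after their values were seen. No member was separated among the 20 fatty acid oxidation genes (median -0.069), the 14 glycolysis genes (0.036) and the 19 vacuolar ATPase genes (0.066).

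Markers of tissues and stages were compared for the composition of the samples. Salivary glue genes, which mark larvae near the end of the instar, were the list with the largest offset outside immunity. All 13 had a log2 difference below 0, against 69.5% of all genes tested, with a median of -0.75. But their summed level was 4822 and 1868 FPKM in dfoxo/+ and 3406 and 8412 FPKM in rel/+, so the groups overlapped. Sgs5 stood at 656 and 132 FPKM in dfoxo/+ and at 413 and 1308 FPKM in rel/+. ng3 had the lowest p among the glue genes, at 133 and 206 FPKM against 345 and 216 FPKM. Larval serum and fat body proteins had a median of 0.21, with Lsp1beta at 1987 and 2385 FPKM in dfoxo/+ and at 1736 and 1830 FPKM in rel/+. Of 17 markers of hemocytes and melanization, Pxn was the only one called or separated, against 0.105% and 1.3% of all genes tested. The median of these markers was -0.049. Muscle, nervous system, and testis and germline lists held no separated gene, with medians of 0.0017, -0.080 and -0.028, and 2 of 18 female-specific genes were tested in these male larvae. The part of larval stage in the results above was not tested.

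No cuticle protein gene was called. Of 73 tested, 2 were separated with dfoxo/+ higher and 1 with dfoxo/+ lower, against 1.3% of all genes in either direction. They were Cpr78Cc at 29.6 and 48.6 FPKM in dfoxo/+ against 17.7 and 20.4 FPKM in rel/+, Cpr49Ae at 2.20 and 4.48 FPKM against 1.97 and 1.36 FPKM, and Lcp65Ae at 3.61 and 5.22 FPKM against 22.0 and 5.91 FPKM. Of 31 heat shock and redox genes 1 was separated, with dfoxo/+ lower, against 0.868% of all genes tested. This was Hsp22, a small chaperone, at 3.40 and 4.02 FPKM in dfoxo/+ and at 5.66 and 21.2 FPKM in rel/+. No gene was separated among 28 of ecdysone and juvenile hormone, 28 of DNA replication and mitosis, 18 of Atf3, AP-1 and JNK, and 11 of ER stress. In all, 32 of 34 lists had no called member and 31 had a median between -0.25 and 0.25.

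**Figure D5:**
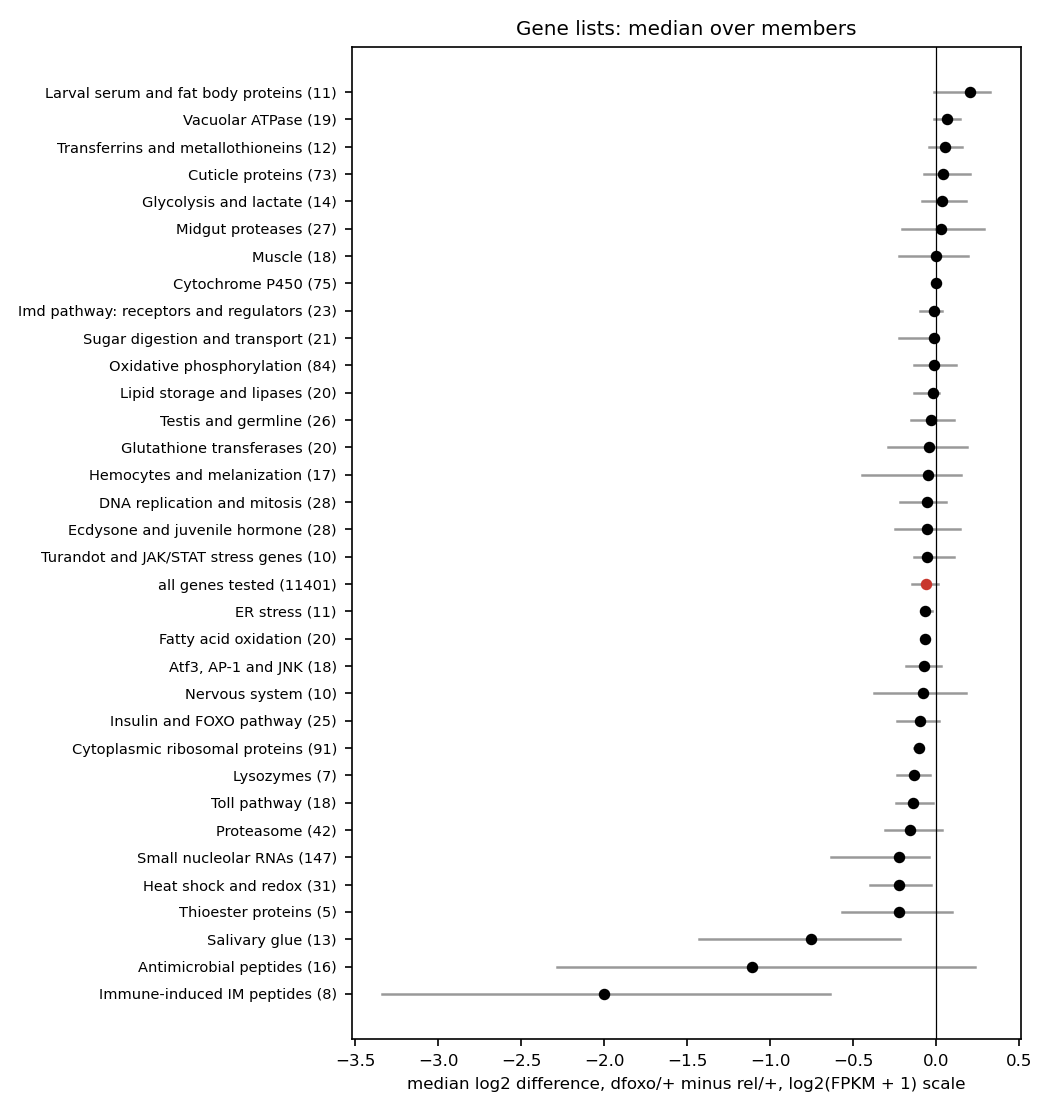
Median log2 difference, dfoxo/+ minus rel/+, over the tested members of each gene list (dots, number tested in brackets; all genes tested in red), with a line from the lowest to the highest median when each of the 4 libraries was left out in turn. Most medians lie near 0, the IM peptides stay below 0 in every case, and the line of the antimicrobial peptides reaches above 0.

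Both added alleles are written on chromosome 3, and foxo and Rel lie on arm 3R. On 3R, 88 of 2790 genes tested had an unadjusted p under 0.05 (3.15%), against 147 of 8611 elsewhere (1.71%). Of the 88, 41 were higher and 47 lower in dfoxo/+. Separated genes made up 1.58% of 3R and 1.21% of the other arms. Within 1 Mb of foxo 3 of 180 genes had an unadjusted p under 0.05 and none was called. Cyp6d5 and CG14850, which are named in other paragraphs, are among these 3, and Lip3 also lies in this window. Within 1 Mb of Rel 7 of 238 genes had an unadjusted p under 0.05. Of these, 2 were called, CG8136 higher and CG8223 lower in dfoxo/+, and MtnA is also among the 7. How much linked sequence differs between the stocks is not stated, and its part in these counts was not tested.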

How the data were processed

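RNA-seq tables of whole male larvae were used, 4 of 10 libraries for the comparison and 6 for values only. Values are FPKM deposited by the authors, with 1 as the lowest value; TopHat 1.3.2 and Cufflinks 1.1.0 are named in the submitters' processing notes, and the build is BDGP R5 (dm3), per the file headers. Annotation, strandedness, filters and read depth: not given in the sources used here. A reference of another build was used only for current gene symbols. The deposited tables by the authors also hold a score named fold change, used here in no result, and a call of regulation, whose quality flag was counted.

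Tables were joined on position, identifier and symbol. The 14148 records gave 13995 genes, with the records of 94 symbols averaged; 116 identifiers are carried by symbols that differ, so genes are named by symbol. In all 5243 genes overlap another gene, and without strand their values are uncertain. All columns of sample values were used, and no 2 libraries repeated each other.

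Genes above 1 in at least 1 of the 4 libraries were put on a log2(FPKM + 1) scale and fitted with limma 3.58.1 (R 4.3.3), with Benjamini-Hochberg adjustment over all genes tested and a threshold of 0.05. Log2 differences are dfoxo/+ minus rel/+ on that scale, with their SE, and understate the change of low genes. The fit was tested on simulated data built from genes above 1 in all 4 libraries. That simulation held no gene at 1 in both libraries of 1 genotype, so it does not bear on calls of such genes. The planned search of promoters for FOXO and κB motifs was not run.

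Members and lists were chosen with earlier results of these data known. Named genes are Atf3, foxo, Rel, y and w; up to 10 called genes per direction at 5 FPKM or more, filled from genes above 1 in all 4 libraries that do not overlap, by lowest p; genes at 1 in both libraries of 1 genotype and at 5 FPKM or more in the other; and, from each of 34 lists, called members and the 3 with the lowest p. Those that a result turns on are printed, and small immune families in addition. Fragment steps were read from small nucleolar RNAs of 136 to 144 bp, at 7 lengths; 163 of 167 values were whole multiples within 0.03. For the called small nucleolar RNAs of 82, 89, 149 and 151 bp the step came from 5, 2, 10 and 9 values of that length, so it is weakly checked. Alternatives were the pseudocount, the filter on low values, centring, quantile normalization, models of 8 or 10 libraries, a variance trend, the replicate number as a block and leaving out each library. Deviations of same-numbered libraries from their group means had a correlation of -0.089 across genes, and the labels do not tie the numbers to a shared batch.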

Additional observations from a re-analysis of the deposited data

How the results depend on the processing

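The number of calls changed with the processing. No gene was called by limma with a pseudocount of 5 (226 at an unadjusted p under 0.05), 2 with no filter on low values, 6 in a model of the 8 atf3[76] libraries, 4 in a model of all 10 libraries, and 1, CG42518, among genes above 1 in all 4 libraries, an alternative chosen after seeing the data. A pseudocount of 0 gave 15 calls, 11 of them shared, a mean of at least 5 FPKM 13, centring or quantile normalization 10 each, all shared, and a variance trend 11. With the replicate number as a block 14 were called, 11 of them shared with the fit without it; the numbers pair only 2 libraries per genotype. Leaving out 1 library gave 0 calls in each of the 4 cases, from 205 to 430 genes at an unadjusted p under 0.05, and from 237 to 409 separated genes. A group then has 1 library, which is assumed to vary like the other pair. No filter gave 480 genes at an unadjusted p under 0.05. Separated genes numbered 72 with a pseudocount of 5, 94 at a mean of at least 5 FPKM and 76 above 1 in all 4 libraries. Of 81 named genes, 9 changed side under at least 1 alternative. Over the fits without 1 library, the log2 difference ranged from -0.17 to 0.48 for A3-3, from -0.24 to 0.06 for foxo (0.056 without dfoxo/+ replicate 2), from -0.89 to 2.12 for dro5, from -3.51 to 0.66 for AttB, from -1.78 to 1.46 for Dpt, from -1.76 to 0.96 for DptB, from -3.60 to 0.17 for IM1, from -3.32 to 0.61 for IM4 and from -0.36 to 0.06 for LysD (0.058 without dfoxo/+ replicate 1), and for Dpt it was 0.001 after quantile normalization. Of these, AttB, Dpt, DptB, IM1, IM4 and dro5 changed side without rel/+ replicate 1; the cause was not tested. Of 363 medians of lists under alternatives, 323 moved by less than 1 SD between replicates. Depth is not given, which limits the precision of low levels and of short genes to an unknown extent.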

Other observations

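Genes of immune peptides of the Bomanin and baramicin families, chosen after their values were seen, lay on the same side as the IM peptides and again with rel/+ replicate 1 highest. CG33470, whose RefSeq symbol is BaraA1, was listed at 2.70 and 1.004 FPKM in dfoxo/+ and at 121 and 18.2 FPKM in rel/+. Its deposited interval overlaps that of IM10, so the pair is not 2 independent observations. CG15065 (RefSeq BomS5) stood at 16.2 and 8.24 FPKM against 103 and 26.5 FPKM, CG16836 (BomT2) at 27.2 and 6.32 FPKM against 56.2 and 32.2 FPKM, and CG15067 (BomBc2) at 5.56 and 2.25 FPKM against 73.5 and 7.22 FPKM. All 4 lie on arm 2R and all 4 were listed near 1 in y w. CG15067 lies between IM1 and IM2, and CG16836 and CG15065 lie just past IM3, from bases 14276599 and 14277462. They are thus part of the same cluster and are not observations independent of the IM peptides. None passed an adjusted p of 0.05.

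A short stretch of 3R held 3 genes with dfoxo/+ higher, also noticed after the values were seen. CG42823 (bases 13230195 to 13230831) was listed at 3.23 and 3.81 FPKM in dfoxo/+ and at 1 in both rel/+ libraries and in the remaining 6. CG42821 (bases 13238733 to 13239263) stood at 9.63 and 15.3 FPKM in dfoxo/+ and at 1.24 and 1 FPKM in rel/+. Next to it, CG42822 (bases 13239653 to 13240048) stood at 29.9 and 37.8 FPKM in dfoxo/+ and at 10.5 and 15.4 FPKM in rel/+ (log2 difference 1.33 ± 0.24, SE, adjusted p = 0.811). CG14850 on 3R, whose RefSeq symbol is Jig, was listed at 9.76 and 28.3 FPKM in dfoxo/+ and at 1 in the other 8 libraries, and was not called (adjusted p = 0.547). None of these genes overlaps another gene in the deposited coordinates.

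Of genes listed at 1 in both libraries of 1 genotype and at 5 FPKM or more in both of the other, 15 were at 1 in dfoxo/+, 9 of them small nucleolar RNAs, and 4 were at 1 in rel/+, 1 of them a small nucleolar RNA.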
